A study of Rattus norvegicus with 3 samples.

Results

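The distal miRNA cluster of the Dlk1-Dio3 domain, from miR-379 to miR-410, was followed in small RNA from extracellular vesicles (EVs), small membrane-bound particles shed by cells. Members were the rat-named entries of 33 names in the cluster, with each mature arm counted as 1 member. There were 48 members, from 30 hairpins, among 499 rat-named and 891 miRNA-named mature names. The list held 19 members of the 5p arm, 27 of the 3p arm and 2 with no arm in the name, miR-495 and miR-668. miR-299 was present under a guinea pig name and not under a rat name, and so is not a member.

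The vesicles came from primary astrocytes of wild-type neonatal rats, and each group had 1 library. One library was from cells given IL-1α, TNF-α and complement C1q, an inflammatory mixture used to make astrocytes reactive. Another was from cells given IL-4 and C1q, so that both treatments shared C1q. The third was from untreated cells. Treatment began on day 6 and lasted 24 h, and all libraries carried the same batch label. The number of animals behind each culture is not stated in the labels. The labels' protocol mentions extraction from harvested astrocytes beside libraries of vesicle RNA, so the source of the RNA is not beyond doubt.

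The libraries held 12327301 miRNA counts after IL-1α/TNF-α/C1q, 7779718 after IL-4/C1q and 6318839 without treatment. With 1 library in a group there is no test and no replicate check. A ratio therefore compares libraries, not conditions, and its 95% interval covers counting error only. Both comparisons with untreated cells use the same untreated library. Levels are counts scaled to a total of 1e6 miRNA counts in each library (CPM), and a member was called higher or lower where it passed a size rule. To pass, the shares had to differ 2-fold or more, the interval had to leave out 1, and the higher of the libraries compared had to hold 50 counts or more.

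The Dlk1-Dio3 domain is imprinted, and in mammals its miRNAs are made from the maternal chromosome as parts of long noncoding transcripts. The distal cluster is one of the large miRNA clusters of placental mammals and is best known from the brain, where neuronal activity can raise its output. Each hairpin is cut into a 5p and a 3p arm, and the seed, bases 2 to 8 of the mature miRNA, largely sets which transcripts it binds. RefSeq places the hairpins on the plus strand of chromosome 6 in the rat assembly GRCr8, with miR-379 first and miR-410 last. The build that the authors used is not given in the sources used here, and no positions are printed.

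All 48 members matched a mature rat miRNA in RefSeq by name. The sequences below are from RefSeq's GRCr8 annotation, with the seed in capitals. The first set is the pair that was lower in both treated libraries.
miR-369-3p: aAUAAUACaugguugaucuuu
miR-412-5p: uGGUCGACcagcuggaaagu

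The next set holds members with high ratios or high levels that are described below. miR-300-3p and miR-381-3p are set one above the other because they are nearly the same, and miR-539-3p follows because it shares a seed with miR-381-3p.
miR-485-5p: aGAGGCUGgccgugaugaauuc
miR-541-5p: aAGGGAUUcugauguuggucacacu
miR-329-5p: aGAGGUUUucugggucucuguuuc
miR-329-3p: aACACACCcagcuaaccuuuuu
miR-134-5p: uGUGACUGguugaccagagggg
miR-300-3p: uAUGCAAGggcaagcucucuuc
miR-381-3p: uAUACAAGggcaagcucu
miR-539-3p: cAUACAAGgguaauuucuuuuc
miR-409a-3p: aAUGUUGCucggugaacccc
miR-494-3p: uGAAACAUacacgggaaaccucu

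Over the 18 bases that both cover, miR-300-3p and miR-381-3p differ at 1 base, G4A, counted from the 5′ end with miR-300-3p first. That base lies in the seed. Their untreated counts were fractional, as when reads that match several entries are divided, so the split between them is uncertain. miR-381-3p and miR-539-3p share the seed AUACAAG in RefSeq. The other shared seed was UGGAUAU, of miR-376b-5p and miR-376c-5p, and the 48 members had 46 distinct seeds in all.

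As a share of each library, the cluster was larger in both treated libraries. The members together held 39922 counts (3239 CPM) after IL-1α/TNF-α/C1q, 28842 (3707 CPM) after IL-4/C1q and 13673 (2164 CPM) without treatment. The IL-1α/TNF-α/C1q library was thus at 1.497 times the untreated one (95% interval 1.47 to 1.53), and the IL-4/C1q library at 1.71 times it (1.68 to 1.75). Between the treated libraries, IL-4/C1q was at 1.14 times IL-1α/TNF-α/C1q (1.13 to 1.16). In vesicle RNA, a change in the cells that release vesicles and a change in what each vesicle carries cannot be told apart.

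Of the members, 45 had counts after IL-1α/TNF-α/C1q, 44 after IL-4/C1q and 39 without treatment, and 37 had counts in all 3 libraries. The number with at least 50 counts was 30, 30 and 23 in the same order. The untreated library was also the shallowest, and the part of depth in these numbers was not tested. In each comparison 30 members had enough counts for the size rule and 18 did not.

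After IL-1α/TNF-α/C1q, 12 of 30 members were higher than in the untreated library, 2 were lower and 16 were neither. The same rule called 15.4% of rat-named miRNAs higher and 12.5% lower. Over all miRNA-named entries it called 13.7% higher and 21% lower. The share of members called higher was therefore above the background. The share called lower rests on 2 members, and on 4 with other species' entries of the same names added, so it is not ranked against the background. The median log2 ratio of the 44 members with at least 10 counts over the libraries was 0.73, on log2(CPM + 1). It was 0.03 over rat-named miRNAs and −0.19 over all named entries.

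After IL-4/C1q, 16 of 30 members were higher than in the untreated library, 2 were lower and 12 were neither. The arms just named and miR-369-5p were among the 16 and were again admitted through the treated library alone. The background was 15.5% higher and 15% lower among rat-named miRNAs, and 13% higher and 23.2% lower among all named entries. The median log2 ratio of the members was 0.94, against −0.05 over rat-named miRNAs and −0.25 over all named entries. With zeros set to a floor of 5 counts, and members at or under it in both libraries left out, the members' medians were 0.70 for IL-1α/TNF-α/C1q and 1.01 for IL-4/C1q. Scaling by edgeR TMM factors, DESeq2 size factors or the authors' constants would move every log2 ratio up, by 0.08 to 0.10 for IL-1α/TNF-α/C1q and by 0.13 to 0.17 for IL-4/C1q.

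**Figure D1:**
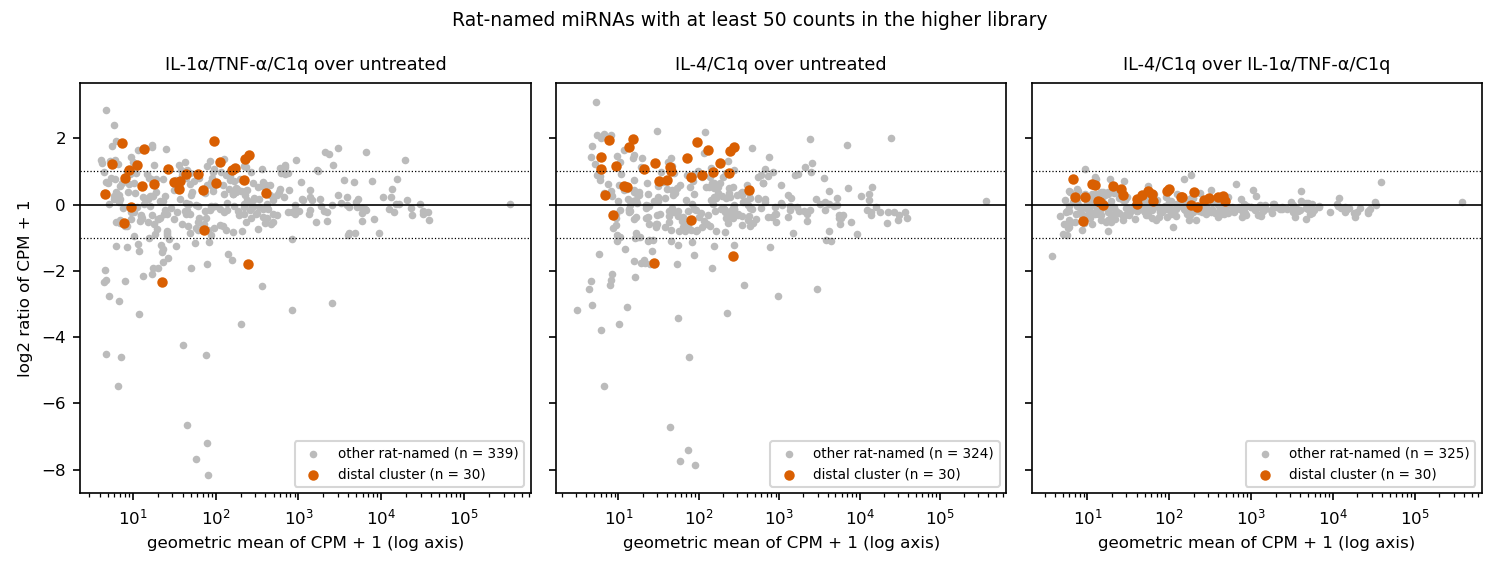
Log2 ratio of CPM + 1 (y axis) against the geometric mean level (x axis, CPM + 1 on a log scale) for rat-named miRNAs that reached 50 counts in one of the libraries compared, 1 library a group. Orange points are the 30 cluster members. Most lie above 0 in both comparisons with untreated cells, 2 lie far below, and all lie within the 2-fold dotted lines between the treated libraries.

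Most tested cluster members were higher in the treated libraries than in the untreated one, whether or not they passed the rule. The ratio to untreated exceeded 1 for 25 of the 30 members with IL-1α/TNF-α/C1q and for 26 of 30 with IL-4/C1q. Over the rat-named miRNAs tested it exceeded 1 for 196 of 369 and for 173 of 354. The count minimum could be met in either library, and 23 members met it in the untreated one. The others, miR-379-3p, miR-329-5p, miR-329-3p, miR-539-3p, miR-485-5p, miR-496-3p and miR-369-5p, entered through the treated libraries alone. All of those had ratios above 1 in both comparisons, so the tallies depend in part on how members were admitted. Members are cut from shared transcripts and counted in the same libraries, so they are not independent measurements of the treatment.

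**Figure D2:**
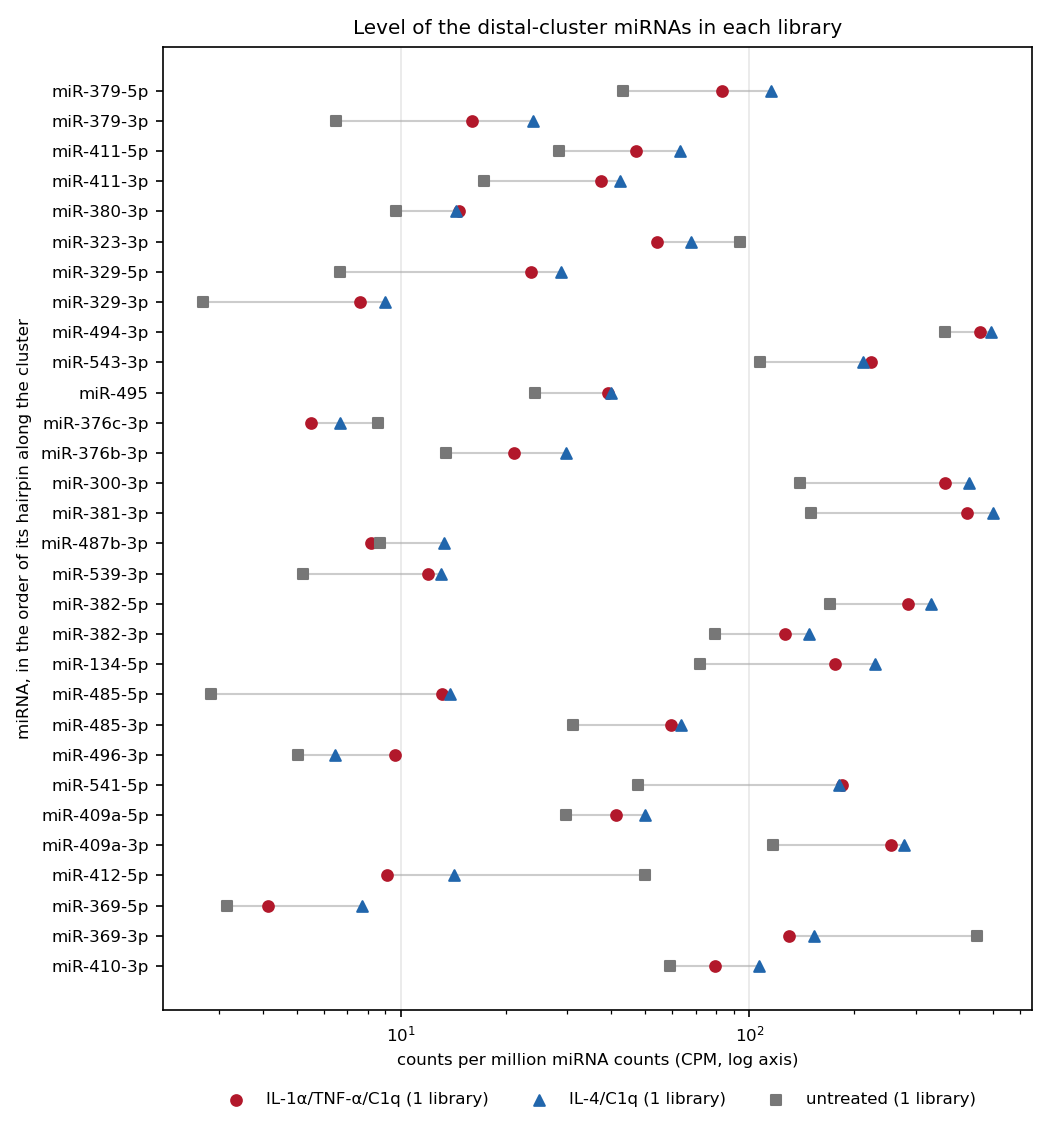
Level of the 30 members with enough counts, in CPM on a log axis, in the order of their hairpins along the cluster; each symbol is 1 library. For most members both treated libraries lie to the right of the untreated one, while miR-369-3p, miR-412-5p, miR-323-3p and miR-376c-3p lie the other way.

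The 10 most abundant members held 81.1% of the member counts after IL-1α/TNF-α/C1q, 79.6% after IL-4/C1q and 78.5% without treatment. miR-494-3p was the most abundant on average. It had 459.5 CPM after IL-1α/TNF-α/C1q, 493 after IL-4/C1q and 364 without treatment. Its ratios to untreated were 1.26 (1.202 to 1.32) and 1.35 (1.29 to 1.43), under the 2-fold limit in both comparisons. The opposite arm, miR-494-5p, had 5 counts after IL-1α/TNF-α/C1q, 5 after IL-4/C1q and 0 without treatment.

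miR-381-3p and miR-300-3p followed in abundance. miR-381-3p had 421 CPM after IL-1α/TNF-α/C1q, 499 after IL-4/C1q and 150.1 without treatment. Its level was 2.81-fold (2.62 to 3.01) and 3.32-fold (3.09 to 3.57) that of the untreated library. miR-300-3p had 365 CPM after IL-1α/TNF-α/C1q, 427 after IL-4/C1q and 139 without treatment, or 2.62-fold and 3.06-fold the untreated level. The count of miR-300-3p over that of miR-381-3p was 0.867, 0.856 and 0.928 in the same order of libraries. Counted as a single miRNA the pair was also called higher in both comparisons with untreated cells.

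miR-134-5p and both arms of miR-329 passed the rule as higher in both comparisons with untreated cells. miR-134-5p, which in rat hippocampal neurons represses Limk1 and limits the size of dendritic spines, had 176 CPM after IL-1α/TNF-α/C1q, 229 after IL-4/C1q and 72.3 without treatment. It was 2.43-fold (2.20 to 2.69) and 3.17-fold (2.86 to 3.52) the untreated level. miR-329-5p had 290 counts after IL-1α/TNF-α/C1q, 224 after IL-4/C1q and 42 without treatment, or 3.54-fold (2.55 to 5.02) and 4.33-fold (3.10 to 6.18). Its partner miR-329-3p, needed with miR-134 and miR-381 for dendrite growth in cultured rat neurons, was 2.83-fold and 3.34-fold the untreated level on 94, 70 and 17 counts in the same order of libraries.

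miR-485-5p, which in rat neurons represses the vesicle protein SV2A, had the highest ratio of the tested members in both comparisons with untreated cells. It had 161 counts after IL-1α/TNF-α/C1q, 107 after IL-4/C1q and 18 without treatment. The ratios were 4.58 (2.81 to 7.93) and 4.83 (2.91 to 8.46), with wide intervals because the untreated count was small. The 3p arm of the same hairpin, miR-485-3p, was more abundant and differed less. It had 59.4 CPM after IL-1α/TNF-α/C1q, 63.6 after IL-4/C1q and 31.2 without treatment, or 1.90-fold and 2.04-fold the untreated level.

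Among the 10 most abundant members, miR-541-5p had the highest ratio to untreated in both comparisons. It had 2267 counts (184 CPM) after IL-1α/TNF-α/C1q, 1403 (180.3 CPM) after IL-4/C1q and 302 (47.8 CPM) without treatment. Its ratios were 3.85 (3.41 to 4.35) and 3.77 (3.33 to 4.29), and the treated libraries differed little from each other. miR-409a-3p had 254 CPM after IL-1α/TNF-α/C1q, 278 after IL-4/C1q and 117 without treatment, or 2.18-fold (2.01 to 2.36) and 2.38-fold (2.19 to 2.59). Its 5p arm differed less, at 41.3, 50.3 and 29.8 CPM in the same order of libraries.

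miR-543-3p and miR-382-5p lay closer to the 2-fold limit. miR-543-3p, which in mouse represses N-cadherin in neural progenitors together with miR-369-3p and miR-496, had 224 CPM after IL-1α/TNF-α/C1q, 212 after IL-4/C1q and 107 without treatment. At 2.09-fold it was just inside the limit after IL-1α/TNF-α/C1q, and at 1.98-fold just outside it after IL-4/C1q. The member just outside the limit after IL-1α/TNF-α/C1q was miR-379-5p at 1.93-fold, and just inside it after IL-4/C1q was miR-485-3p. miR-382-5p had 286 CPM after IL-1α/TNF-α/C1q, 332 after IL-4/C1q and 170.3 without treatment, and its ratios of 1.68 and 1.95 passed in neither. miR-382-3p behaved like its partner, with ratios of 1.59 and 1.86.

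The hairpins at the start of the cluster were also higher in the treated libraries. miR-379-5p had 83.2 CPM after IL-1α/TNF-α/C1q, 116 after IL-4/C1q and 43.2 without treatment. Its partner miR-379-3p had 197 counts after IL-1α/TNF-α/C1q, 185.5 after IL-4/C1q and 41 without treatment. That was 2.46-fold (1.75 to 3.54) and 3.67-fold (2.62 to 5.30) the untreated level. miR-411-5p was 1.66-fold and 2.22-fold the untreated level, and miR-411-3p 2.17-fold and 2.46-fold. Of these 4 arms, 2 passed the rule with IL-1α/TNF-α/C1q and all 4 with IL-4/C1q.

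miR-539-3p, which shares its seed with miR-381-3p, had 147 counts after IL-1α/TNF-α/C1q, 101 after IL-4/C1q and 33 without treatment. It was 2.28-fold (1.56 to 3.44) and 2.49-fold (1.66 to 3.803) the untreated level. miR-376b-3p and miR-369-5p passed after IL-4/C1q alone, at 2.21-fold (1.71 to 2.86) and 2.44-fold (1.45 to 4.27). After IL-1α/TNF-α/C1q they stood at 1.57-fold and 1.31-fold. The difference between the treated libraries is given by their direct comparison below, where neither member passed the rule.

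**Figure D3:**
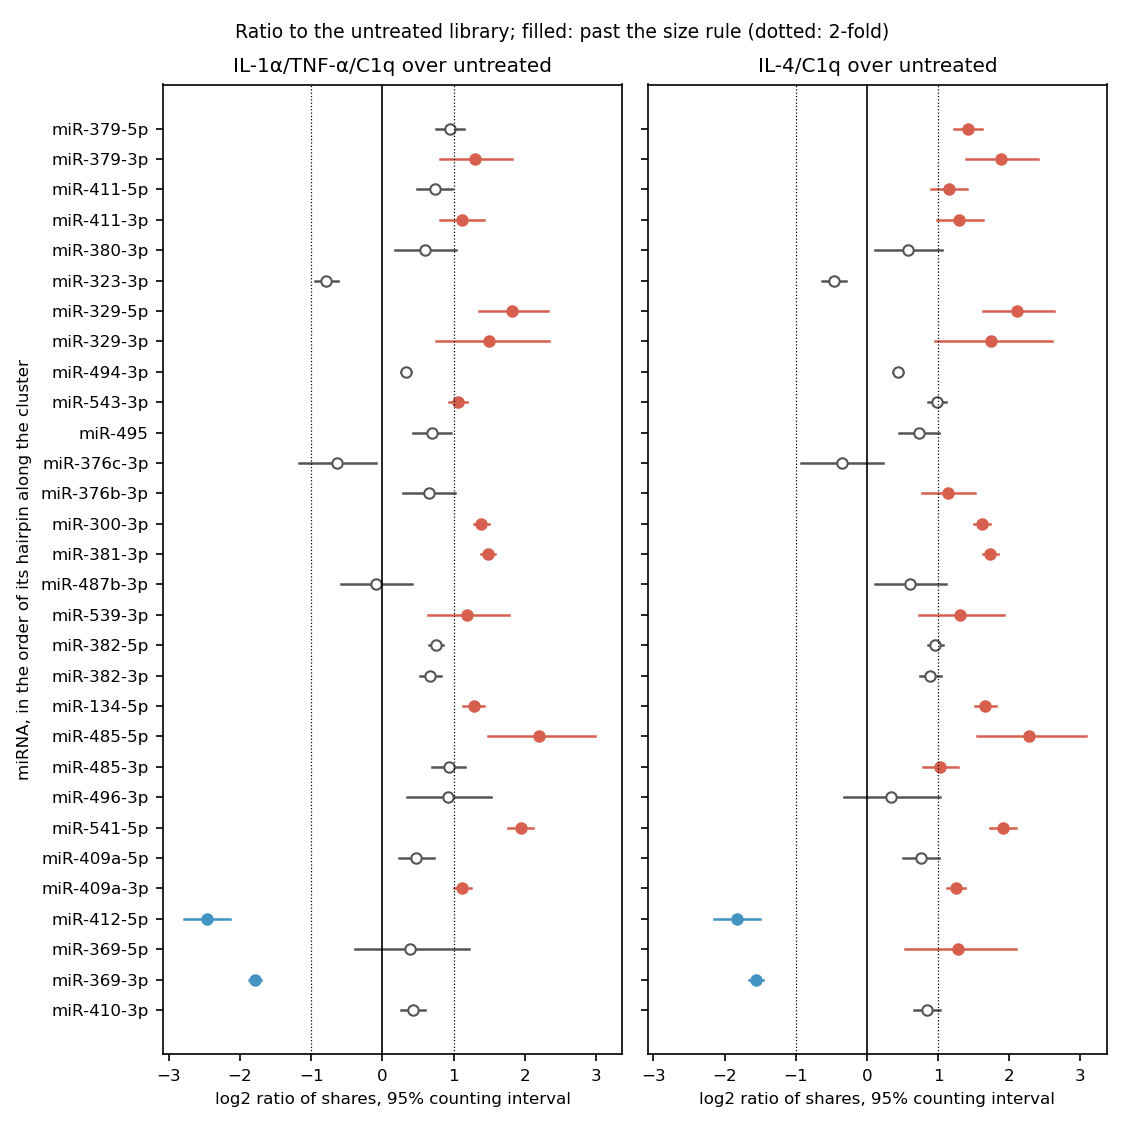
Log2 ratio of each member's share to the untreated library (x axis) with its 95% counting interval, for IL-1α/TNF-α/C1q (left) and IL-4/C1q (right); members run down the page in cluster order. Red points passed the size rule as higher (12 on the left, 16 on the right), blue points as lower (miR-412-5p and miR-369-3p), and open points did not pass.

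The cluster had 2 members that were lower in both treated libraries, miR-369-3p and miR-412-5p. miR-369-3p is known in human cells for binding the AU-rich element of TNF mRNA. It had 1605 counts (130.2 CPM) after IL-1α/TNF-α/C1q, 1191 (153 CPM) after IL-4/C1q and 2844 (450.1 CPM) without treatment. Relative to the untreated library it was lower 3.46-fold (3.25 to 3.68) with IL-1α/TNF-α/C1q and 2.94-fold (2.75 to 3.15) with IL-4/C1q. In the untreated library it was the most abundant member of the cluster, ahead of miR-494-3p. In both treated libraries it stood below members such as miR-409a-3p, miR-543-3p, miR-134-5p and miR-541-5p, all of which it exceeded without treatment.

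miR-412-5p had 112 counts (9.09 CPM) after IL-1α/TNF-α/C1q, 110 (14.1 CPM) after IL-4/C1q and 316 (50.01 CPM) without treatment. Its level was 5.504-fold (4.42 to 6.89) lower than in the untreated library with IL-1α/TNF-α/C1q and 3.54-fold (2.84 to 4.44) lower with IL-4/C1q. The entry that holds these counts carries the tag 1ss12CT. The files do not define their tags. Read as it is written, the tag names a C-to-T substitution, and the counts would then be of a sequence that differs from the reference miRNA by that base.

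miR-412 and miR-369 are neighbours, at places 28 and 29 of the 30 hairpins, and the hairpins on either side went the other way. On one side miR-409a-3p was above the untreated level in both comparisons, and on the other so was miR-410-3p. miR-410-3p had 79.7 CPM after IL-1α/TNF-α/C1q, 106 after IL-4/C1q and 59.2 without treatment, or 1.35-fold and 1.80-fold. The partner arm miR-369-5p, with 51, 60 and 20 counts in the same order of libraries, did not follow miR-369-3p down. miR-412-3p had 0 counts in both treated libraries and 9 without treatment. Lower levels past the rule were thus seen for 1 arm of each of these hairpins and for neither neighbour.

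The pair changed the summed level of the cluster. Together miR-369-3p and miR-412-5p held 139 CPM after IL-1α/TNF-α/C1q, 167 after IL-4/C1q and 500.1 without treatment. The other 46 members held 3099, 3540 and 1664 CPM in the same order. Without the pair, which was chosen after its values were seen, the summed level was 1.86-fold and 2.13-fold that of the untreated library.

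Another 2 tested members were below the untreated level in both comparisons without passing the rule. miR-323-3p had 54.4 CPM after IL-1α/TNF-α/C1q, 68.1 after IL-4/C1q and 93.8 without treatment, with ratios of 0.579 (0.518 to 0.648) and 0.726 (0.644 to 0.818). miR-376c-3p had 68, 52 and 54 counts in the same order of libraries. Its interval for IL-4/C1q, from 0.524 to 1.17, included 1. miR-487b-3p, at 101, 103 and 55 counts, was the fifth member below 1 after IL-1α/TNF-α/C1q, with an interval of 0.671 to 1.33.

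A count of 0 in at least 1 library was found for 11 members, all of them low. miR-494-5p, miR-667-5p, miR-667-3p, miR-376b-5p, miR-539-5p and miR-154-5p were at 0 in the untreated library alone. The largest of them, miR-667-3p, had 39 counts with IL-1α/TNF-α/C1q and 18 with IL-4/C1q. Against a floor of 5 counts for the untreated library it was at least 3.998-fold and at least 2.92-fold higher. miR-154-5p had 37 and 15 counts in the same libraries, at least 3.79-fold and at least 2.44-fold higher. These bounds are approximate, since the floor was taken from where most whole counts in the files begin.

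Members absent from the treated libraries were fewer. With 0 in both treated libraries, miR-154-3p had 8 and miR-412-3p had 9 counts without treatment. miR-376a-5p had 7 counts and miR-544-3p had 10 after IL-1α/TNF-α/C1q, with 0 in the other libraries. miR-376c-5p had 2.5 counts after IL-4/C1q alone, and its reference sequence differs from that of miR-376b-5p at 1 base, U19G.

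Between the treated libraries the cluster differed little. No member passed the size rule in either direction, in a comparison where the rule called 1.09% of all named entries higher and 1.09% lower, and 0.282% of rat-named miRNAs higher and 0.845% lower. The members nevertheless leaned one way, with IL-4/C1q above IL-1α/TNF-α/C1q for 26 of the 30. Over rat-named miRNAs this was so for 136 of 355. The median log2 ratio was 0.22 over the members and −0.06 over rat-named miRNAs, and by each of the scalings above the members' ratios would be higher still by 0.05 to 0.08.

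The tested member with the highest ratio between them was miR-369-5p, at 7.71 CPM after IL-4/C1q and 4.14 after IL-1α/TNF-α/C1q, or 1.86-fold (1.26 to 2.76). miR-496-3p had the lowest, at 6.43 CPM after IL-4/C1q and 9.57 after IL-1α/TNF-α/C1q, a ratio of 0.671 (0.472 to 0.942). Among the abundant members, miR-134-5p was 1.30-fold (1.22 to 1.39) and miR-541-5p 0.981-fold (0.917 to 1.05). Outside the count minimum, miR-377-3p had 38 counts after IL-4/C1q and 30 after IL-1α/TNF-α/C1q, a ratio of 2.01 (1.21 to 3.35).

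Both arms of a hairpin come from 1 precursor, so the share of the 5p arm can be compared within a library without any scaling. Of 18 hairpins with both arms in the files, 13 had at least 50 counts in every library. Shares had Clopper-Pearson 95% intervals, which cover counting error only. The intervals for treated and untreated libraries did not overlap for 4 hairpins, miR-369, miR-376b, miR-409a and miR-485, in both comparisons with untreated cells. For miR-376b this holds only if its untreated 5p count of 0 is exact. With zeros set to the floor of 5 counts, an alternative chosen after seeing the data, 3 hairpins stood apart. Between the treated libraries the intervals overlapped for all 13. Arm shares were computed for the cluster alone, so how often hairpins outside it would stand apart is not known.

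The 5p share of miR-485 was 18.0% after IL-1α/TNF-α/C1q (15.6 to 20.7), 17.8% after IL-4/C1q (14.8 to 21.1) and 8.37% without treatment (5.04 to 12.9). For miR-409a the share was lower in both treated libraries. It was 14.0% (12.9 to 15.1) after IL-1α/TNF-α/C1q, 15.3% (13.9 to 16.8) after IL-4/C1q and 20.3% (17.7 to 23.0) without treatment. miR-369 was dominated by its 3p arm in every library. Its 5p share was 3.08% (2.30 to 4.03) after IL-1α/TNF-α/C1q, 4.80% (3.68 to 6.13) after IL-4/C1q and 0.698% (0.427 to 1.08) without treatment. For miR-376b it was 7.80%, 7.78% and 0% in the same order, on 282, 250.5 and 85 counts over both arms. At the floor the untreated share would be 5.56% (1.83 to 12.5), and its interval would include both treated shares.

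For the other 9 hairpins the treated and untreated intervals overlapped. miR-382 gave 69.3% of its counts from the 5p arm after IL-1α/TNF-α/C1q, 69.1% after IL-4/C1q and 68.1% without treatment. For miR-379 the shares were 83.9%, 82.9% and 86.9%, and for miR-411 55.7%, 59.8% and 62.2%, in the same order. miR-541 came almost wholly from its 5p arm, at 99.3%, 99.6% and 98.1%. miR-494 came almost wholly from its 3p arm, with 5p shares of 0.0882%, 0.130% and 0%.

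**Figure D4:**
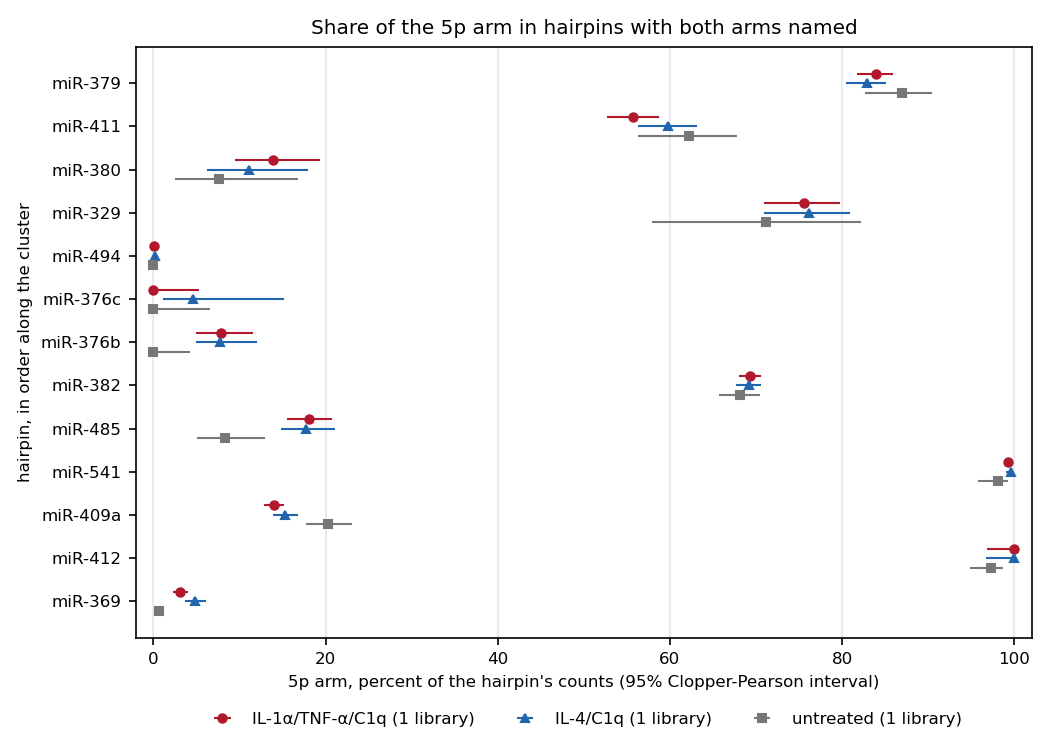
Share of the 5p arm in the counts of each hairpin (x axis, percent) with its 95% Clopper-Pearson interval, for the 13 hairpins with at least 50 counts in each library. Treated and untreated intervals stand apart for miR-485, miR-409a and miR-369, and for miR-376b only with its untreated 5p count taken as exactly 0; the treated libraries overlap each other throughout.

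The names of 29 members carried a tag and 19 carried none. There were 7 tags beginning with L and 21 with R alone, and 3 members had a substitution tag, 2 of them also with an L tag. If L and R count bases gained or lost at the 5′ and 3′ end against the reference, an L tag shifts the seed. Read this way, the 1-base-shorter 5′ end of miR-379-3p gives it the RefSeq seed of miR-411-3p, as the following sequences show. The first is the reference, the second the shifted form, and the last the RefSeq form of miR-411-3p.
miR-379-3p: cUAUGUAAcaugguccacuaac
miR-379-3p, L-1: uAUGUAACaugguccacuaac
miR-411-3p: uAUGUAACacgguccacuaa

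By the same reading, miR-409a-3p would start 1 base earlier than its reference above. Its tag adds L+1, and the base before it in the RefSeq hairpin gives the form below, whose seed no other member has.
miR-409a-3p, L+1: gAAUGUUGcucggugaacccc

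The substitution-tagged members, miR-412-5p, miR-412-3p and miR-544-5p, together held 118 counts after IL-1α/TNF-α/C1q, 117 after IL-4/C1q and 337 without treatment, nearly all in miR-412-5p. Hairpins of the miR-376 family are known substrates of A-to-I editing in human and mouse brain, which reads as an A-to-G change. A single member, miR-544-5p, carried an A-to-G tag, with 6 counts after IL-1α/TNF-α/C1q, 7 after IL-4/C1q and 12 without treatment. That was 0.0150% of the member counts (0.00552 to 0.0327), 0.0243% (0.00976 to 0.0499994) and 0.0878% (0.0454 to 0.153) in the same order. No rat-named member of the miR-376 family carried such a tag. Outside the members, a human-named and a goat-named entry of miR-376c-3p carried the tag 1ss6AG, each with 5 counts after IL-1α/TNF-α/C1q, 0 after IL-4/C1q and 10.5 without treatment. Another human-named entry with this tag had 13 counts in the untreated library and 0 elsewhere.

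Entries under other species' names also matched the cluster. There were 16, under 5 species prefixes, with 147 CPM after IL-1α/TNF-α/C1q, 165 after IL-4/C1q and 558 without treatment. The largest in the untreated library was the untagged entry of bta-miR-380-3p, a bovine name, with 719 counts after IL-1α/TNF-α/C1q, 589 after IL-4/C1q and 2787 without treatment. The rat-named miR-380-3p went the other way, with 180, 112 and 61 counts in the same order. If the bovine-named entries were counted with it, miR-380-3p would be 6.22-fold lower than in the untreated library with IL-1α/TNF-α/C1q and 5.04-fold lower with IL-4/C1q. The guinea pig entry of miR-299-3p, the largest of the 16 in both treated libraries, had 966, 599 and 546 counts in the same order, or 78.4, 77.0 and 86.4 CPM.

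The untreated library stood apart in other ways. Bovine-named entries as a whole held 595 CPM after IL-1α/TNF-α/C1q, 752 after IL-4/C1q and 4399 without treatment. All 5 erythrocyte and serum markers were called lower in both treated libraries, with sums of 1054, 1386 and 8847 CPM in the same order. Of 6 epithelial markers, 5 were called lower in both and the other, miR-429, had 5 counts with IL-1α/TNF-α/C1q and 0 elsewhere. Their sums were 28.1, 27.4 and 3189 CPM. Of these markers miR-141-3p was at 0 in both treated libraries, and miR-144-3p of the erythrocyte list was at 0 after IL-1α/TNF-α/C1q. A species prefix names the entry to which reads were assigned and not the organism of origin. Whether what sets the untreated library apart has a part in the levels of miR-369-3p, miR-412-5p and bta-miR-380-3p was not tested.

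Of the cell type marker lists, only the mesenchymal one had a higher sum in both treated libraries, as the rest of the cluster had. The 7 mesenchymal markers, such as miR-143-3p, miR-145-5p and miR-199a-3p, held 46355 CPM after IL-1α/TNF-α/C1q, 68205 after IL-4/C1q and 17590 without treatment. They had no zeros, and 5 of 7 were called higher with IL-1α/TNF-α/C1q and 6 of 7 with IL-4/C1q. Their part in the higher level of the cluster was not tested. The sum of the 5 neuronal markers was 4830, 4579 and 8308 CPM in the same order, carried mainly by miR-129-5p and miR-128-3p. Of the 5, 1 was called lower with IL-1α/TNF-α/C1q and 2 with IL-4/C1q, and none was called higher. miR-124-3p, the most neuron-specific of them, had 307, 213 and 616 counts. miR-138-5p alone of the 5 lay above the untreated level, at 1.69-fold (1.12 to 2.61) with IL-1α/TNF-α/C1q and 1.34-fold (0.839 to 2.16) with IL-4/C1q.

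The astrocyte markers, which are not specific to astrocytes, were high in all libraries, at 430073 CPM after IL-1α/TNF-α/C1q, 451176 after IL-4/C1q and 445738 without treatment. Most of this was miR-21-5p and miR-9a-5p. miR-21-5p was at 1.02-fold the untreated level with IL-1α/TNF-α/C1q and 1.08-fold with IL-4/C1q. The other astrocyte markers, miR-9a-5p, miR-9a-3p, miR-181a-5p and miR-29a-3p, lay below the untreated level in both treated libraries. Of these miR-9a-3p, at 0.55-fold and 0.47-fold, was called lower with IL-4/C1q, and no astrocyte marker was called with IL-1α/TNF-α/C1q. Endothelial markers held 34.9 CPM after IL-1α/TNF-α/C1q, 48.3 after IL-4/C1q and 68.5 without treatment, and miR-126a-3p was called lower with IL-1α/TNF-α/C1q. Microglial and leukocyte markers summed to 227, 264 and 334 CPM, most of it miR-342-3p at 214, 195 and 153 CPM. The myeloid miRNA miR-223-3p, under its mouse name, had 28, 238 and 368 counts in the same order. miR-142-5p, a marker of blood cells under its guinea pig name, had 80, 246 and 725 counts. Against untreated cells both were called lower with IL-1α/TNF-α/C1q, and miR-142-5p also with IL-4/C1q. Set against IL-1α/TNF-α/C1q, both were called higher with IL-4/C1q, by a factor of 13.5 (9.08 to 20.7) for miR-223-3p and of 4.87 (3.77 to 6.35) for miR-142-5p. miR-142-3p was at 0 in both treated libraries and had 5 counts without treatment, too few for the size rule. Whether these cells have a part in the levels of the cluster was not tested.

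**Figure D5:**
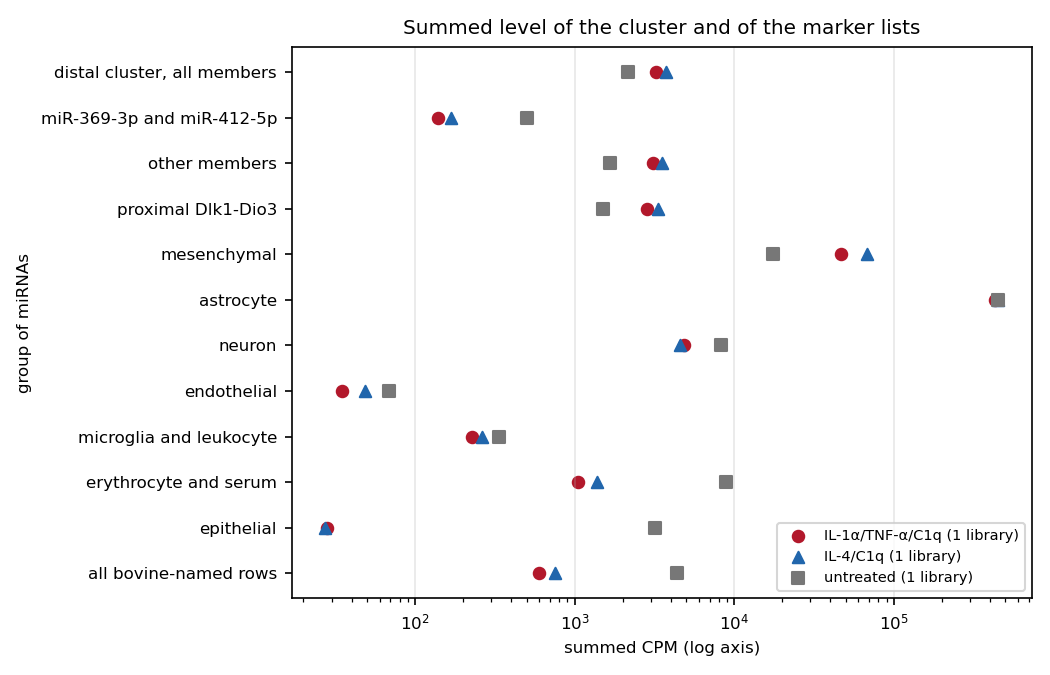
Summed CPM (log axis) of the cluster, of its lower pair and other members, of the proximal Dlk1-Dio3 miRNAs, of the cell type marker lists and of bovine-named entries; each symbol is 1 library. The cluster without its lower pair, the proximal miRNAs and the mesenchymal markers lie higher in both treated libraries, and the erythrocyte, epithelial and bovine-named sums lie higher in the untreated one.

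The proximal miRNAs of the same imprinted domain, from miR-770 to miR-370, were higher in the treated libraries too. Of 14 listed names 13 were present, as 22 arms, of which miR-433 was read from its mouse name. They summed to 2851 CPM after IL-1α/TNF-α/C1q, 3304 after IL-4/C1q and 1506 without treatment. Against untreated cells, 12 of 18 tested arms were higher with IL-1α/TNF-α/C1q and 15 of 17 with IL-4/C1q, and none was lower in either. The median log2 ratios were 1.19 and 1.42, above the members' 0.73 and 0.94. Between the treated libraries none of 18 passed the rule.

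The most abundant of these, miR-127-3p, which lies antisense to the imprinted gene Rtl1, had 12871 counts after IL-1α/TNF-α/C1q, 9614 after IL-4/C1q and 2885 without treatment. miR-370-3p had 146, 112 and 5 counts in the same order. That was 15.0-fold (6.27 to 46.8) the untreated level with IL-1α/TNF-α/C1q and 18.2-fold (7.57 to 57.1) with IL-4/C1q. The intervals are wide because the untreated count, 5, is at the floor. Of 7 further rodent names of the distal region that were not members, 2 were present. miR-1193-3p had 92, 53 and 15 counts in the same order and was called higher in both comparisons with untreated cells. miR-666-5p had 7 counts after IL-4/C1q and 0 elsewhere.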

How the data were processed

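Small RNA from 3 vesicle libraries was analysed, 1 per condition. Each deposited file held 1480 entries with 2 measures per the file headers. The raw column held the authors' estimated counts, not all whole, and was used throughout. The normalized column is a signal that the authors made by a constant per library (0.684 for IL-1α/TNF-α/C1q, 1.14 for IL-4/C1q and 1.25 for untreated), which served as an alternative scaling. For the aligner, counting tool, database version and build: not given in the sources used here.

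Predicted candidates with no miRNA name (0.0364%, 0.0345% and 0.0662% of counts in the same order) were left out. Entries of a mature name were summed, and every member had 1 entry. Shares were taken of all miRNA-named counts, of which 94.4%, 94.4% and 93.9% were rat-named. Ratio intervals are exact conditional binomial, on counts rounded to whole numbers, computed in SciPy 1.17.1. Both these and the floors are limited: as PCR duplicates cannot be told from separate molecules, they cover only the error of counting. The size rule was computed over all entries and members were read from that table. A count of 0 was given a floor of 5 counts.

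Scaling alternatives were edgeR 4.0.16 TMM factors and DESeq2 1.42.0 size factors, which use counts only for library scaling here. Named members were the 10 most abundant arms, the 6 highest and the 6 lowest of the ratios that passed the size rule in each comparison, members that went against the majority of those past it, both arms of hairpins with at least 200 counts in each library, and those next to the 2-fold limit. Others named with values were chosen after their values were seen. Members, lists and tests were chosen with earlier results of these data known. Sequences and gene order come from RefSeq (GRCr8).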

Additional observations from a re-analysis of the deposited data

Results flagged for a closer look

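Outside the members, an entry under an armadillo name of miR-134-5p, which carries the tag 1ss22CA, had 52 counts with IL-1α/TNF-α/C1q and 41 with IL-4/C1q, against 0 in the untreated one. It stands here because it has counts in both treated libraries and none in the untreated one, and because the comparisons above do not use it. The rat-named miR-134-5p held 2167, 1783 and 457 counts in the IL-1α/TNF-α/C1q, IL-4/C1q and untreated libraries. What the entry's reads are was not tested.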

How the results depend on the processing

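With 1 library per condition no replicate could be left out. No paired analysis was possible because each condition had 1 library. No A-to-G tagged entry reached 50 counts, so that alternative gave no value. Against untreated cells, a fold minimum of 1.5 called 21 members higher and 4 lower after IL-1α/TNF-α/C1q. A minimum of 3 called 3 members higher after IL-1α/TNF-α/C1q, and 8 higher and 1 lower after IL-4/C1q. Without a count minimum 5 passed as lower with IL-1α/TNF-α/C1q. With substitution-tagged entries left out, 1 was lower in each comparison with untreated cells. With other species' entries of the same names added, an alternative chosen after seeing the data, 4 were lower in each. Between the treated libraries, 1 member was higher in IL-4/C1q without a count minimum and 3 at a fold minimum of 1.5. The shares of all entries called under these alternatives were not computed. The background shares given above are for the 2-fold rule with 50 counts and cannot be set beside these counts.

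A pseudocount of 10 CPM lowered the median log2 ratios to 0.38 for IL-1α/TNF-α/C1q, 0.43 for IL-4/C1q and 0.10 between the treated libraries, where the authors' scaling gave 0.28. The summed ratio for IL-1α/TNF-α/C1q was 1.58 with TMM, 1.60 with DESeq2 factors, 1.60 with the authors' scaling, 1.55 without substitution-tagged entries, 1.54 without the most abundant member, 1.32 without the top 3, 1.26 with other species' entries and 1.86 without miR-369-3p and miR-412-5p. For IL-4/C1q these values were 1.87, 1.93, 1.93, 1.81, 1.79, 1.52, 1.45 and 2.13 in the same order. Between the treated libraries it was 1.19 with TMM, 1.2002 with DESeq2 factors, 1.21 with the authors' scaling and 1.16 without substitution-tagged entries. Of the recomputed ratios of members picked by the naming rules above, 505 kept their side of the size rule, 17 newly passed it and none turned round. The 17 were of miR-379-5p and miR-485-3p after IL-1α/TNF-α/C1q and of miR-382-5p, miR-382-3p and miR-543-3p after IL-4/C1q. The naming rules did not pick miR-380-3p, which did turn round with bovine-named entries added, as given above. miR-412-5p had no ratio with substitution-tagged entries left out, since its only entry carries such a tag. At these depths 18 of the 48 members had too few counts for the size rule.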
